A study of Mus musculus with 18 samples.

Results

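Chromatin accessibility was described at the loci of 7 genes that mark general capillary (gCap) cells of the mouse lung: Aplnr, Plvap, Gpihbp1, Cd93, Hilpda, Lyve1 and Cxcl12. The data were ATAC-seq peak lists from lung endothelial cells (ECs) of 18 mice, one list per mouse. Peaks of all lists were merged into 47338 regions, each with a peak in at least 2 samples. A region belonged to a gene when the TSS nearest to its midpoint was that of the gene or when it lay in the body of the gene, and 45 of the 47338 regions met this rule for the 7 genes. The 4 groups were Young Sham (5 mice), Young Bleo (4 mice), Aged Sham (4 mice) and Aged Bleo (5 mice). Young mice were 2 and aged mice 18 months old. Bleo mice had received 1 U/kg of bleomycin into the trachea and Sham mice PBS, and the lungs were taken on day 30. All mice were of the FVB strain and, per the methods, carried a Col1α1-GFP reporter, which marks collagen-producing cells. The sorted cells were negative for CD45, EpCAM and GFP and positive for CD31. The sort kept every kind of CD31+ EC together, so at a locus fewer gCap cells and lower accessibility per gCap cell cannot be told apart.

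General capillary cells form one of the EC types of the alveolar capillary bed, beside the aerocytes, which lie flat against the airspace for gas exchange. They are known as the proliferating and repairing cells of that bed. ATAC-seq reports where DNA is open: the transposase Tn5 inserts into DNA that is not wrapped in nucleosomes, and promoters and enhancers in use appear as peaks. An open region near a gene does not by itself give the level of its mRNA, and mRNA was not analysed here.

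The lists held 21050 to 40883 peaks on chromosomes 1 to 19, X and Y. Young Sham lists held 30073 to 38747 peaks, Young Bleo lists 33980 to 39420, Aged Sham lists 25793 to 32220 and Aged Bleo lists 21050 to 40883. The shortest list was that of Aged Bleo 4 and the longest that of Aged Bleo 2. The lists give no read totals, and the depth of a library was read from the lowest background in its list, 1.02 to 1.78 fragments. This background was 1.26 to 1.78 in Young Sham, 1.498 to 1.73 in Young Bleo and 1.02 to 1.44 in Aged Sham. It was 1.598 in Aged Bleo 1 and 1.06 to 1.14 in the other Aged Bleo samples. All aged samples but Aged Sham 4 and Aged Bleo 1 thus lay below every young sample. The sequencing lane is not in the labels and was inferred from how the lists are named. Lane 8 held all Young Sham samples and Young Bleo 4, lane 7 held Young Bleo 1 to 3 and Aged Sham 1 to 3, and lane 6 held Aged Sham 4 and all Aged Bleo samples. No aged sample shared a lane with Young Sham, so against Young Sham the effect of age cannot be told apart from that of the lane. The lanes were uneven in the other comparisons as well. Young Bleo 4 alone of the Young Bleo samples shared a lane with Young Sham. Lane 8 held young samples only and lane 6 aged samples only. The part of the lane in these comparisons was not tested. Endothelial promoters checked the sort: Cdh5, Erg and Tie1 had a promoter peak in all 18 samples and Pecam1 in 17. Ptprc, Cd68 and Cd3e, which define leukocytes, and Epcam, Sftpc, Nkx2-1 and Cdh1, which define epithelium, had none in any sample. Of the stromal promoters, those of Col1a1, Tcf21 and Pdgfrb had none and that of Pdgfra had one in all 18. Of the lymphatic promoters, those of Prox1, Pdpn and Flt4 had none and that of Mmrn1 had one in 4 samples, 3 of the 4 Young Bleo and 1 of the 5 Aged Bleo samples. The part of lymphatic ECs in the bleomycin comparisons was not tested. The promoters of Plvap, Cd93, Hilpda and Cxcl12 had a peak in all 18 samples, those of Aplnr in 13, Gpihbp1 in 11 and Lyve1 in 7.

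Cd93 had 13 of the 45 regions, Aplnr and Plvap had 7 each, Gpihbp1 6, Cxcl12 5, Hilpda 4 and Lyve1 3. Each gene had 1 promoter region, defined as 1000 bp before to 100 bp after a TSS, and 30 of the 45 regions were intergenic. The other regions were 4 in introns, 3 in UTRs and 1 in a coding exon. Only 8 of the 45 regions (17.8%) had a peak in all 18 samples, against 36.8% of all 47338 regions. The median member region was found in 13 samples and the median region overall in 14. Member regions were 400 bp wide at the median against 440 bp, and their median distance from the nearest TSS was 8563 bp against 12628 bp. These are descriptions without a test, since the 45 regions were chosen by gene.

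The sequences below are of the open regions to which the values further on refer. They come from the C57BL/6J reference genome (GRCm38, the mm10 build of the lists), not from the FVB mice. The presence of 3 short motifs was searched on both strands in the 200 bp around the strongest summit of every region. The first was CAGGAAG, the core bound by ERG and other ETS factors, which are known for their place in endothelial gene control. The second was TGANTCA, the site of AP-1, and the third ACGTG, the core of the hypoxia response element bound by HIF. The last letters of an AP-1 match can be the first letters of an ERG core match. The ERG core was found in 17 of the 45 member windows (37.8%) and in 19.9% of all windows. The AP-1 motif was found in 6 (13.3%, against 8.63% of all) and the HRE core in 5 (11.1%, against 14.3%). A match is a description of the letters and not of binding.

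The window of Aplnr region 3, the Aplnr region with a peak in every sample, is shown because its fragments were lowest in Aged Bleo. It spans chr2:85129562-85129761 on the plus strand in intergenic DNA upstream of the gene. Capitals mark the 2 matches of the ERG core, here read as its reverse complement CTTCCTG. The window of Gpihbp1 region 2, at chr15:75593071-75593270 on the plus strand and also intergenic, is shown because its strength was higher in the aged groups. Capitals mark its ERG core.
Aplnr region 3: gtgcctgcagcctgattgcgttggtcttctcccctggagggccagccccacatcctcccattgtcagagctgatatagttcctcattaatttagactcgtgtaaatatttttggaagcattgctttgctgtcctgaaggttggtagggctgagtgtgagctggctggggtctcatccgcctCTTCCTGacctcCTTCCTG
Gpihbp1 region 2: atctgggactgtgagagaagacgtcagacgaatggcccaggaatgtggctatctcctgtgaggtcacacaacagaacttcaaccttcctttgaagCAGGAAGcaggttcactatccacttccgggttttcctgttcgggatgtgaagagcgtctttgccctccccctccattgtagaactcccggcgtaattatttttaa

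The next 4 sequences are the 150 bases before the TSS at promoters whose peaks differed between groups or were weak in many samples, each read 5′ to 3′ on the strand of the gene. They lie at chr6:117168385-117168534 (Cxcl12, plus strand), chr2:85136210-85136359 (Aplnr, plus strand), chr15:75596480-75596629 (Gpihbp1, plus strand) and chr8:71511770-71511919 (Plvap, minus strand). The Gpihbp1 and Plvap promoters hold an ERG core, in capitals. The Cxcl12 and Aplnr promoters hold none in these letters.
Cxcl12 promoter: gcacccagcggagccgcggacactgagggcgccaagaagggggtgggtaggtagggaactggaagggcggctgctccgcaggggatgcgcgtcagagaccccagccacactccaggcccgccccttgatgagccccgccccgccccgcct
Aplnr promoter: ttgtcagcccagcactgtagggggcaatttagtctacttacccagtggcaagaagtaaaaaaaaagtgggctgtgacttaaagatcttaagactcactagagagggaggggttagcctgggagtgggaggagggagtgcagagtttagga
Gpihbp1 promoter: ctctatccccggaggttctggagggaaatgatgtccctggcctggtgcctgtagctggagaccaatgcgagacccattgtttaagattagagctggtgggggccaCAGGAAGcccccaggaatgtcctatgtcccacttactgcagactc
Plvap promoter: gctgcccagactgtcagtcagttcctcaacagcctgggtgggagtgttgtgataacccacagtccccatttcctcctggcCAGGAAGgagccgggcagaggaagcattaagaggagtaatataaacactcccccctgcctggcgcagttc

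Shorter stretches show a selection of the motif matches in other regions named below, with the motif in capitals, and the remaining matches are only counted above. Cd93 region 3 (plus strand, from chr2:148468213-148468239 to chr2:148468297-148468323) holds an AP-1 match that is followed by an ERG core and then by a further ERG core, next to which an HRE core (acgtg) is left in lower case. Cd93 region 6 (chr2:148490378-148490404, minus strand), Cxcl12 region 4 (chr6:117247672-117247698, plus strand) and Cd93 region 11 (chr2:148532196-148532222, plus strand) hold an ERG core each. Hilpda region 3 (chr6:29271210-29271236, plus strand) holds an AP-1 match, and Hilpda region 4, the promoter, holds an HRE core (chr6:29272573-29272597, plus strand) between its 2 RefSeq TSSs.
Cd93 region 3, AP-1: acatgggaaaTGACTCAaatgccagga
Cd93 region 3, first ERG core: actcaaatgcCAGGAAGgaagttaaaa
Cd93 region 3, second ERG core: ctaacaggacCAGGAAGacgtgtgaca
Cd93 region 6, ERG core: gttctaggcaCAGGAAGgaagaaatgt
Cd93 region 11, ERG core: gacagggaaaCAGGAAGggggcaacgc
Cxcl12 region 4, ERG core: taatgaacacCAGGAAGgcctcgttaa
Hilpda region 3, AP-1: aagggttcatTGACTCAtcctggaagt
Hilpda region 4, HRE core: tggccagcggACGTGccccagggcg

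How many of the member regions had a peak was compared first. Of the 45 regions, Young Sham 1 to 5 had a peak at 35, 35, 29, 37 and 29. Young Bleo 1 to 4 had a peak at 31, 38, 35 and 28, Aged Sham 1 to 4 at 19, 33, 21 and 25, and Aged Bleo 1 to 5 at 38, 39, 22, 12 and 22. The mean share was 73.3% in Young Sham and in Young Bleo, 54.4% in Aged Sham and 59.1% in Aged Bleo. All 47338 regions gave 71.9%, 75.1%, 59.2% and 62.9% in the same order, so the lower share in the aged groups was found at regions of all genes. The samples with the fewest and the most member peaks, Aged Bleo 4 and Aged Bleo 2, were also those with the shortest and the longest list. When every list was cut to the 21050 peaks with the lowest p, the length of the shortest list, the member shares were 43.6%, 37.2%, 36.1% and 32.4%, while those of all regions were 44.0%, 44.1%, 43.8% and 43.6%.

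**Figure D1:**
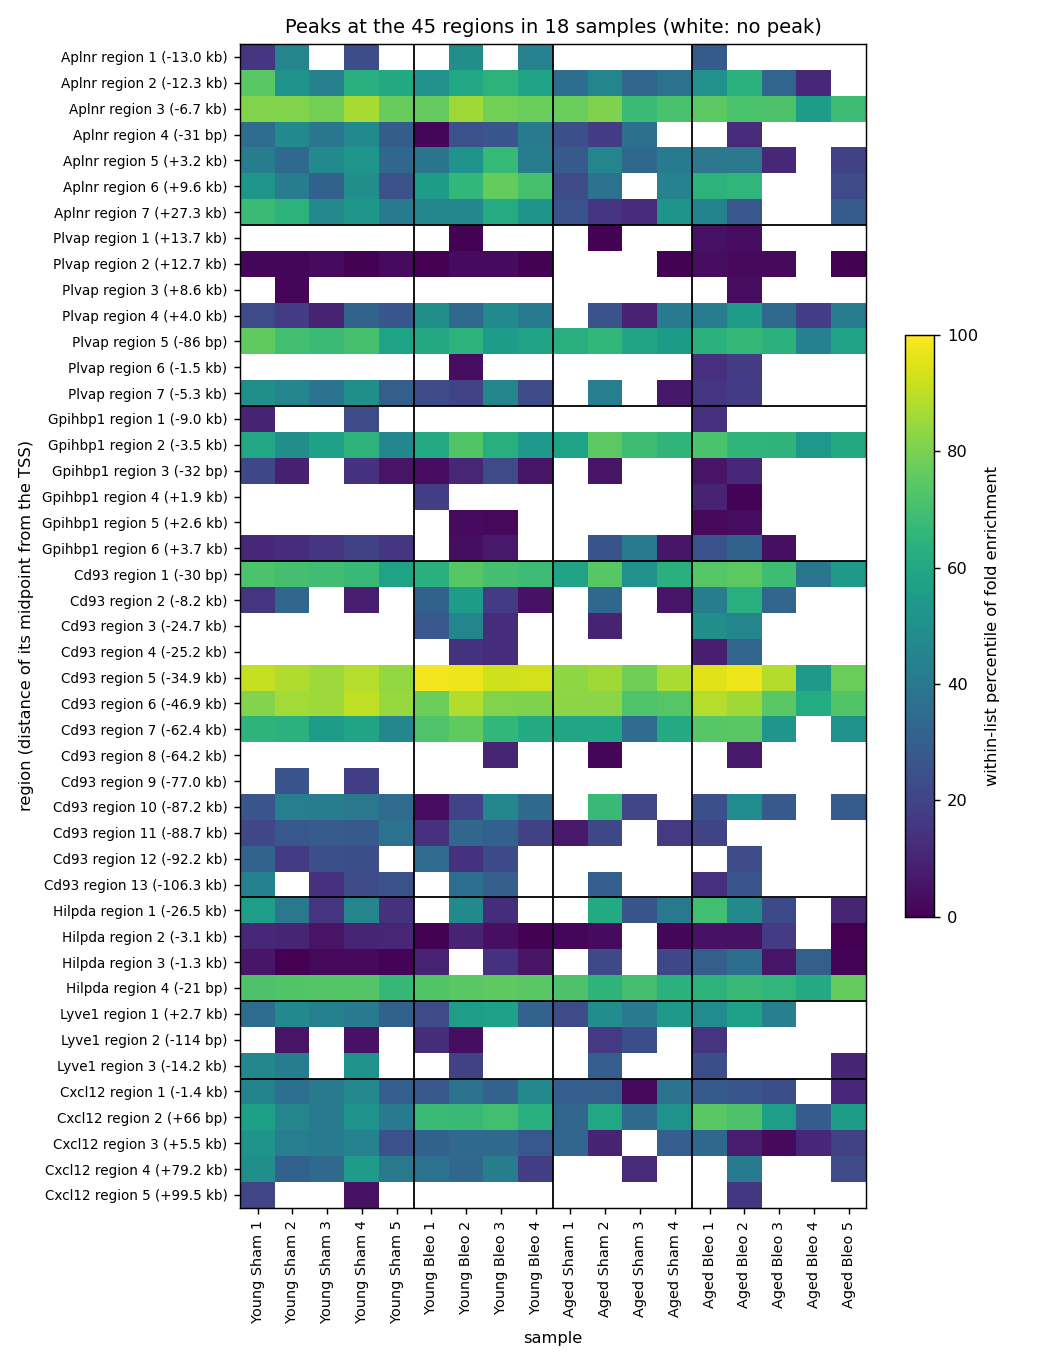
Peaks at the 45 member regions (vertical axis, with the distance of the region's midpoint from the TSS) in the 18 samples (horizontal axis, by group). White means no peak, and the colour gives the percentile of the peak's fold enrichment among all peaks of its list. Cd93 regions 5 and 6 are bright in nearly every sample, while Aged Bleo 4 has a peak at only 12 regions.

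Each region was compared between groups by the number of samples with a peak, by Fisher's exact test, two-sided, with Benjamini-Hochberg (BH) adjustment over all 47338 regions. In none of the 5 comparisons did any of the 47338 regions pass after adjustment, and the smallest p that 5 against 4 or 5 against 5 mice can give is 0.00794. The regions below are those with an unadjusted p of at most 0.05. The first 3 comparisons share the Young Sham samples. In Aged Sham against Young Sham, 3 of the 45 member regions (6.67%) had a peak in fewer samples and 0 in more, and of all regions 4.90% were lower and 0.264% higher. In Young Bleo against Young Sham, 0 were lower and 1 (2.22%) was higher, against 1.96% lower and 3.98% higher of all. In Aged Bleo against Young Sham, 2 (4.44%) were lower and 0 higher, against 3.01% and 0.201%. In Aged against Young over both treatments, 6 (13.3%) were lower and 0 higher, against 4.87% and 0.127%. In Bleo against Sham over both ages none was lower or higher, against 1.23% lower and 2.17% higher. The member shares lay near those of all regions in the comparisons with Young Sham and above them in Aged against Young. Regions of the same locus are not independent, and no test of these shares was made. Each of the 4 regions that passed in Aged Sham or Young Bleo no longer did in 8 of 9 tests that left out a sample (exact p up to 0.143).

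Those 6 regions belonged to Aplnr, Plvap, Gpihbp1, Cd93 and Cxcl12. Aplnr encodes the apelin receptor, a G protein-coupled receptor of capillary and venous endothelium. Aplnr region 4, its promoter (chr2:85136129-85136528), had a peak in 9 of 9 young and 4 of 9 aged samples (two-sided Fisher's exact p = 0.0294, adjusted p = 0.793). The scaled summit fragments, that is the fragments under the highest point of the peak after scaling between libraries, were 32.3, 47.4, 45.5, 47.4 and 30.3 in Young Sham 1 to 5. They were 16.1, 26.1, 26.9 and 34.01 in Young Bleo 1 to 4. In Aged Sham 1 to 3 they were 29.7, 22.7 and 31.1, Aged Sham 4 had no peak, and among the Aged Bleo samples Aged Bleo 2 alone had one, with 16.6. Of the 8 other samples with a peak, Young Bleo 4 and Aged Sham 3 alone reached the lowest Young Sham value. Against Young Sham, the promoter was found in 1 of 5 Aged Bleo samples and 5 of 5 Young Sham samples (exact p = 0.0476, adjusted p = 1). By lane, 6 of 6 samples of lane 8, 6 of 6 of lane 7 and 1 of 6 of lane 6 had the peak, and within lane 7 it was in 3 of 3 Aged Sham and 3 of 3 Young Bleo samples. The part of the lane in the result was not tested. In lists of equal length the promoter had a peak in 5 of 5 Young Sham and 0 of 5 Aged Bleo samples (exact p = 0.00794).

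In those equal-length lists, 4 of the 45 member regions (8.89%) were lower in Aged Bleo than in Young Sham and 1 (2.22%) was higher, against 1.16% and 0.642% of all regions. The 4 lower regions were Aplnr region 4, Aplnr region 5 in the UTR (0 of 5 against 5 of 5, exact p = 0.00794), Aplnr region 7 (1 of 5 against 5 of 5, exact p = 0.0476) and Plvap region 7 (0 of 5 against 5 of 5, exact p = 0.00794). The higher one was Hilpda region 3, found in 4 of 5 Aged Bleo and 0 of 5 Young Sham samples (exact p = 0.0476). In the full lists these 4 other regions were found in 5 of 5 Young Sham samples and in 4, 3, 2 and 5 of 5 Aged Bleo samples. None of these differences passed there (exact p = 0.444 at Aplnr region 7 and 0.167 at Plvap region 7). Regions were lower in the other comparisons as well. In Young Bleo against Young Sham, 3 member regions (6.67%) were lower and 1 (2.22%) higher, against 1.88% and 2.15% of all. The lower ones were Aplnr region 4 and Plvap region 7 (each 1 of 4 against 5 of 5) and Cd93 region 10 (0 of 4 against 4 of 5), and the higher one was Aplnr region 6 (4 of 4 against 1 of 5), each with an exact p of 0.0476. In Aged Sham against Young Sham, 1 (2.22%) was lower, Plvap region 7 (1 of 4 against 5 of 5, exact p = 0.0476), and 0 higher, against 0.919% and 0.801%. In Aged against Young, 3 (6.67%) were lower, Aplnr regions 5 and 7 and Plvap region 7, and 1 was higher, Hilpda region 3, against 0.594% and 0.499%. In Bleo against Sham, 4 (8.89%) were lower, Aplnr regions 4 and 5, Cd93 region 10 and Plvap region 7, and 0 higher, against 1.43% and 1.18%. In the full lists Cd93 region 10 went the other way in Bleo against Sham (8 of 9 Bleo and 7 of 9 Sham samples). Hilpda region 3 did so in Aged against Young (7 of 9 aged and 8 of 9 young samples). Plvap region 7 was thus among the lower regions in each of the 5 comparisons of equal-length lists. All of these comparisons include the Young Sham samples, so they do not count as separate findings. Of the regions that passed with the full lists, Aplnr region 4 in Aged Bleo (against Young Sham) and Plvap region 7 in Aged (against Young) alone still passed in lists of equal length. Each other presence difference of Plvap, Gpihbp1, Cd93 and Cxcl12 given below had an exact p of 0.444 to 1 there, and that of Aplnr region 4 in Aged against Young one of 0.153.

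Plvap encodes the protein of the diaphragms that span endothelial fenestrae and caveolae. Plvap region 7 (chr8:71516831-71517307), 5300 bp upstream of the TSS, had a peak in 9 of 9 young and 4 of 9 aged samples (exact p = 0.0294, adjusted p = 0.793). Within lane 7, 3 of 3 Young Bleo and 1 of 3 Aged Sham samples had it. Plvap region 2 (chr8:71498845-71499205), in an intron of Plvap but nearer to the TSS of Gtpbp3, was found in 5 of 5 Young Sham and 1 of 4 Aged Sham samples (exact p = 0.0476, adjusted p = 0.922). It was found in 4 of 5 Aged Bleo samples, and the aged groups were not tested against each other.

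Gpihbp1 encodes a GPI-anchored protein that carries lipoprotein lipase across capillary endothelium to the lumen. Gpihbp1 region 3, its promoter (chr15:75596410-75596786), had a peak in 8 of 9 young and 3 of 9 aged samples (exact p = 0.0498, adjusted p = 0.997). The peak was in the lower part of every list that held it, at the 3.13th to 22.9th percentile. Within lane 7, 3 of 3 Young Bleo and 1 of 3 Aged Sham samples had it. Cd93 encodes a C-type lectin-like transmembrane receptor of endothelium. Cd93 region 12 (chr2:148535607-148535949), 92243 bp upstream, was found in 7 of 9 young and 1 of 9 aged samples (exact p = 0.0152, adjusted p = 0.693). Without the young samples it would not have met the rule of a peak in at least 2 samples, so this p gives no support. Cd93 region 11 (chr2:148532004-148532476), 88705 bp upstream, was found in 9 of 9 young and 4 of 9 aged samples (exact p = 0.0294, adjusted p = 0.793), and in 1 of 5 Aged Bleo samples against 5 of 5 Young Sham samples (exact p = 0.0476, adjusted p = 1). Both regions are far from the Cd93 TSS and were assigned to it only as the nearest one. Within lane 7, Cd93 region 11 was in 3 of 3 Young Bleo and 2 of 3 Aged Sham samples. Cd93 region 12 was in 3 of 3 and 0 of 3 there. In lane 6, which held aged samples only, they were in 2 of 6 and 1 of 6 samples. The part of the lane was not tested.

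Cxcl12 encodes the chemokine ligand of Cxcr4. Cxcl12 region 4 (chr6:117247592-117247893), 79208 bp downstream of the TSS, was found in 9 of 9 young and 3 of 9 aged samples (exact p = 0.00905, adjusted p = 0.624), the lowest p among the member regions. It was found in 5 of 5 Young Sham, 4 of 4 Young Bleo, 1 of 4 Aged Sham and 2 of 5 Aged Bleo samples. Within lane 7, 3 of 3 Young Bleo samples and 1 of 3 Aged Sham samples had it.

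One member region, upstream of Cd93, was found in more samples after bleomycin in young mice. Cd93 region 3 (chr2:148468047-148468460), 24719 bp upstream, had no peak in the 5 Young Sham samples and a peak in 3 of 4 Young Bleo samples (exact p = 0.0476, adjusted p = 0.801). The scaled summit fragments were 15.1, 16.3 and 9.70 in Young Bleo 1 to 3. They were 10.3 in Aged Sham 2, the Aged Sham sample with a peak, and 18.6 and 16.6 in Aged Bleo 1 and 2. The peak thus held few fragments wherever it was found, and it lay at the 9.94th (Aged Sham 2) to 49.5th percentile (Aged Bleo 1) of its list. Young Bleo 4, the bleomycin sample that shared lane 8 with Young Sham, had none. The neighbouring Cd93 region 4 (chr2:148468574-148468937) and Gpihbp1 region 5 (chr15:75599118-75599401) were found in 4 of 9 Bleo and 0 of 9 Sham samples each. They met the rule of a peak in at least 2 samples through the Bleo samples alone, so no p is given for them.

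How strong the peaks were could be compared only at the 8 member regions with a peak in all 18 samples, of 17432 such regions in all. This filter keeps open regions that no group had lost, so it says nothing of the other 37. The rank percentile of a region places its fold enrichment among those 17432 regions in the same sample, from 0 for the weakest to 100 for the strongest. Groups were compared with limma with BH adjustment over the 17432 regions, and a region was counted at an adjusted p of at most 0.05. In Aged Sham against Young Sham, 0 of the 8 were lower and 1 higher, against 0.539% lower and 0.459% higher of all. In Young Bleo against Young Sham the counts were 0 and 1, against 1.79% and 1.32%. In Aged Bleo against Young Sham they were 0 and 2, against 5.21% and 5.43%. In Aged against Young they were 0 and 1, against 1.73% and 1.54%, and in Bleo against Sham 0 and 1, against 3.57% and 2.97%. The regions that passed were the Cxcl12 promoter and Gpihbp1 region 2, each in 3 comparisons.

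The Cxcl12 promoter (region 2, chr6:117168264-117168938) was stronger in Young Bleo and in Aged Bleo than in Young Sham. Its rank percentile was 16.6, 9.67, 9.05, 12.99 and 11.8 in Young Sham 1 to 5 and 40.5, 32.3, 35.96 and 31.5 in Young Bleo 1 to 4. It was 10.7, 29.9, 12.7 and 18.8 in Aged Sham 1 to 4 and 46.4, 39.3, 29.02, 18.2 and 31.8 in Aged Bleo 1 to 5. Every Young Bleo and every Aged Bleo sample was above every Young Sham sample, while Aged Sham overlapped Young Sham and Aged Bleo. The group means ± SD were 12.03 ± 3.03 in Young Sham (n = 5), 35.1 ± 4.11 in Young Bleo (n = 4), 18.0 ± 8.64 in Aged Sham (n = 4) and 32.9 ± 10.6 in Aged Bleo (n = 5). With limma the difference from Young Sham was 23.05 percentile points in Young Bleo (SE 5.00, adjusted p = 0.0187) and 20.9 in Aged Bleo (SE 4.71, adjusted p = 0.0113). Over both ages Bleo was 18.98 points above Sham (SE 3.53, limma adjusted p = 0.00482). Aged Sham was 5.99 points above Young Sham, with a limma adjusted p of 0.600.

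In scaled summit fragments the Cxcl12 promoter had 38.1, 34.8, 33.9, 36.2 and 32.5 in Young Sham 1 to 5 and 79.4, 73.4, 70.9 and 54.1 in Young Bleo 1 to 4. It had 25.6, 43.3, 29.7 and 41.9 in Aged Sham 1 to 4 and 91.5, 89.9, 50.3, 32.01 and 44.7 in Aged Bleo 1 to 5. Aged Bleo 1 and 2 were the highest of all samples, and Aged Bleo 4 lay below every Young Sham sample on this scale. On the log2 scale of these fragments, Young Bleo was 0.97 above Young Sham (1.96-fold, limma adjusted p = 0.00556), Aged Bleo 0.70 (1.62-fold, adjusted p = 0.0168) and Bleo 0.85 above Sham (1.80-fold, adjusted p = 0.000344). Within lanes the groups were unequal in number or differed in age, and no test was made. In lane 8, Young Bleo 4 ranked at 31.5 against 9.05 to 16.6 in Young Sham. In lane 7, the 3 Young Bleo samples averaged 36.3 and the 3 Aged Sham samples 17.8, without overlap. In lane 6, the 5 Aged Bleo samples ranged from 18.2 to 46.4 and Aged Sham 4 ranked at 18.8, so that Aged Bleo 4 lay below it, also in fragments (32.01 against 41.9). Ranked among all peaks of each list instead, the promoter was still higher, by 19.9, 9.92 and 16.4 points, but none of these passed (limma adjusted p = 0.336, 0.392 and 0.115). Without Young Bleo 1 the limma adjusted p of Young Bleo against Young Sham was 0.0656.

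Gpihbp1 region 2 (chr15:75592920-75593409), 3465 bp upstream of the TSS, was stronger in the aged groups. Its rank percentile was 19.8, 11.97, 23.5, 29.4 and 16.4 in Young Sham 1 to 5 and 29.3, 41.4, 24.3 and 17.8 in Young Bleo 1 to 4. It was 37.6, 53.7, 54.4 and 38.9 in Aged Sham 1 to 4 and 41.7, 27.9, 41.96, 43.8 and 39.97 in Aged Bleo 1 to 5. All Aged Sham samples were above all Young Sham samples, and all Aged Bleo samples but Aged Bleo 2 were as well. The group means ± SD were 20.2 ± 6.66 in Young Sham (n = 5), 28.2 ± 9.95 in Young Bleo (n = 4), 46.1 ± 9.14 in Aged Sham (n = 4) and 39.1 ± 6.39 in Aged Bleo (n = 5). With limma, Aged Sham was 25.9 percentile points above Young Sham (SE 5.63, adjusted p = 0.0397), Aged Bleo 18.8 (SE 5.31, adjusted p = 0.0306), and the aged 18.4 above the young samples (SE 3.98, adjusted p = 0.0227). Young Bleo was 7.97 points above Young Sham (limma adjusted p = 0.507). With each of the 18 samples left out in turn, the Aged Sham difference no longer passed in 6 fits (without Young Sham 1, 2, 3 or 5 or Aged Sham 2 or 3, limma adjusted p up to 0.104). The Aged Bleo difference no longer passed in 7 (without Young Sham 1, 2 or 5 or Aged Bleo 1, 3, 4 or 5, up to 0.0846), and that of aged against young in 1 (without Young Bleo 3, 0.0503). With a replicate block neither the Aged Sham nor the Aged Bleo difference passed.

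The scaled summit fragments of Gpihbp1 region 2 were 38.1, 33.3, 41.4, 47.4 and 34.7 in Young Sham 1 to 5 and 50.1, 65.3, 45.5 and 33.1 in Young Bleo 1 to 4. They were 47.2, 77.3, 55.4 and 58.1 in Aged Sham 1 to 4 and 69.4, 69.1, 52.8, 47.1 and 48.98 in Aged Bleo 1 to 5. The aged samples were again mostly above Young Sham, with Young Bleo between. On the log2 scale of these fragments, Aged Sham was 0.60 above Young Sham (1.51-fold, limma adjusted p = 0.0428), Aged Bleo 0.55 (1.47-fold, adjusted p = 0.0174), and the aged 0.43 above the young samples (1.35-fold, adjusted p = 0.0311). In lane 7, the rank percentile averaged 48.5 in Aged Sham and 31.6 in Young Bleo, with ranges of 37.6 to 54.4 and 24.3 to 41.4 that overlapped. Ranked among all peaks of each list, the differences were 11.2, 7.60 and 5.98 points in the same order and did not pass (limma adjusted p = 0.235, 0.312 and 0.252). The promoter of the same gene, region 3, went the other way in its presence, with a peak in 3 of 9 aged and 8 of 9 young samples.

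**Figure D2:**
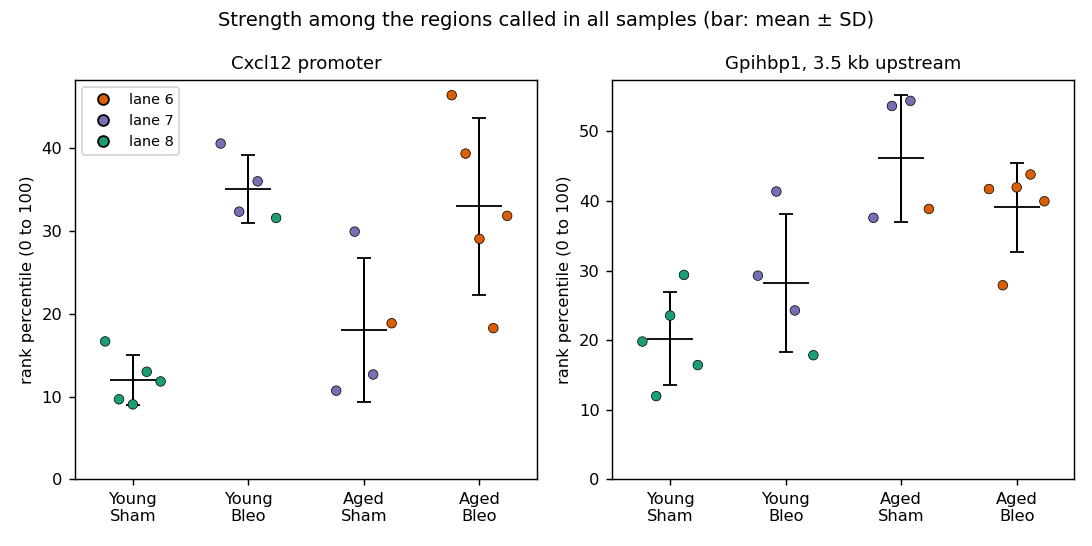
Rank percentile of fold enrichment (0 to 100, vertical axis) of the Cxcl12 promoter and of Gpihbp1 region 2 in the 4 groups. Points are single mice coloured by sequencing lane, and bars give the mean ± SD. At the Cxcl12 promoter all 9 Bleo samples lie above all 5 Young Sham samples, and at Gpihbp1 region 2 all 4 Aged Sham samples do.

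The scaled summit fragments gave lower values at regions of Aplnr, Plvap and Cd93 that the rank percentile did not call. This scale was chosen after seeing the data. It covers 17414 of the 17432 regions. In Aged Sham against Young Sham, 2 of the 8 member regions were lower and 1 higher, against 3.91% and 5.21% of all. In Young Bleo against Young Sham the counts were again 2 and 1, against 8.18% and 9.23%, and in Aged Bleo against Young Sham 2 and 2, against 15.8% and 16.7%. In Aged against Young they were 1 and 1, against 5.25% and 7.22%, and in Bleo against Sham 1 and 1, against 17% and 16.8%.

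Aplnr region 3 (chr2:85129312-85130035), 6686 bp upstream, fell in Aged Bleo on this scale. Its scaled summit fragments were 111, 127, 117, 133 and 94.2 in Young Sham 1 to 5 and 92.6, 104, 91.01 and 81.1 in Young Bleo 1 to 4. They were 94.4, 112, 77.02 and 79.04 in Aged Sham 1 to 4 and 76.2, 63.2, 67.5, 48.95 and 63.4 in Aged Bleo 1 to 5. All 5 Aged Bleo samples were below all samples of the other 3 groups, and Young Bleo and Aged Sham lay between these and most Young Sham samples. The means ± SD were 117 ± 15.1 in Young Sham (n = 5), 92.1 ± 9.21 in Young Bleo (n = 4), 90.7 ± 16.4 in Aged Sham (n = 4) and 63.9 ± 9.86 in Aged Bleo (n = 5). On the log2 scale Aged Bleo fell by 0.87 from Young Sham (0.546-fold, limma adjusted p = 9.52e-06). The differences of −0.37 in Aged Sham and −0.34 in Young Bleo did not pass (limma adjusted p = 0.0831 and 0.0845). The pooled comparisons did: Aged was 0.731-fold Young (limma adjusted p = 0.00308) and Bleo 0.748-fold Sham (adjusted p = 0.00146). By rank percentile the difference of Aged Bleo from Young Sham was −14.6 points (SE 4.75), with a limma adjusted p of 0.0566, just short of the threshold. Ranked among all peaks of each list, it was −12.4 points and passed (limma adjusted p = 0.0421), the one member call of Aged Bleo on that scale. In Aged against Young the region was also lower and passed on that scale. That percentile also depends on how many weak peaks a list holds, and the lists differed in length, so it does not show a change by itself. Ranked by the −log10 p of the peaks, the difference of Aged Bleo from Young Sham was −21.9 points (limma adjusted p = 0.000148). Aged Sham 4, the sample of lane 6 that had no bleomycin, had 79.0 fragments, above the 49.0 to 76.2 of Aged Bleo in that lane. In lane 7, Aged Sham averaged 94.6 and Young Bleo 95.7, and in lane 8 Young Bleo 4 had 81.1 against 94.2 to 133 in Young Sham.

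Plvap region 5, its promoter (chr8:71511584-71512126), had 83.8, 84.4, 70.3, 79.6 and 60.6 scaled summit fragments in Young Sham 1 to 5 and 52.9, 60.4, 47.00 and 51.5 in Young Bleo 1 to 4. It had 60.7, 57.7, 45.9 and 54.3 in Aged Sham 1 to 4 and 61.8, 74.1, 61.4, 43.3 and 60.5 in Aged Bleo 1 to 5. All Young Bleo samples were below all Young Sham samples, and Aged Sham 1 was the one Aged Sham sample to reach the lowest Young Sham value. On the log2 scale Young Bleo fell by 0.51 (0.701-fold, limma adjusted p = 0.0190) and Aged Sham by 0.47 (0.723-fold, adjusted p = 0.0480) from Young Sham, while the difference of −0.34 in Aged Bleo did not pass (adjusted p = 0.0644). By rank percentile none of these differences passed (−15.3 points in Young Bleo, limma adjusted p = 0.107).

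Cd93 region 6 (chr2:148490068-148490778), 46888 bp upstream, had 93.7, 103, 105, 117 and 94.2 scaled summit fragments in Young Sham 1 to 5 and 68.99, 92.99, 64.9 and 64.5 in Young Bleo 1 to 4. It had 74.2, 94.8, 56.8 and 61.9 in Aged Sham 1 to 4 and 92.3, 88.2, 60.1, 50.8 and 60.5 in Aged Bleo 1 to 5. Of the other samples, Aged Sham 2 alone reached the lowest Young Sham value, and Young Bleo 4, of the same lane as Young Sham, had 64.5. On the log2 scale Young Bleo fell by 0.51 (limma adjusted p = 0.0360), Aged Sham by 0.54 (adjusted p = 0.0433) and Aged Bleo by 0.58 (adjusted p = 0.00635) from Young Sham. By rank percentile the differences were −8.15, −7.27 and −8.32 points, with limma adjusted p of 0.481, 0.556 and 0.307.

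**Figure D3:**
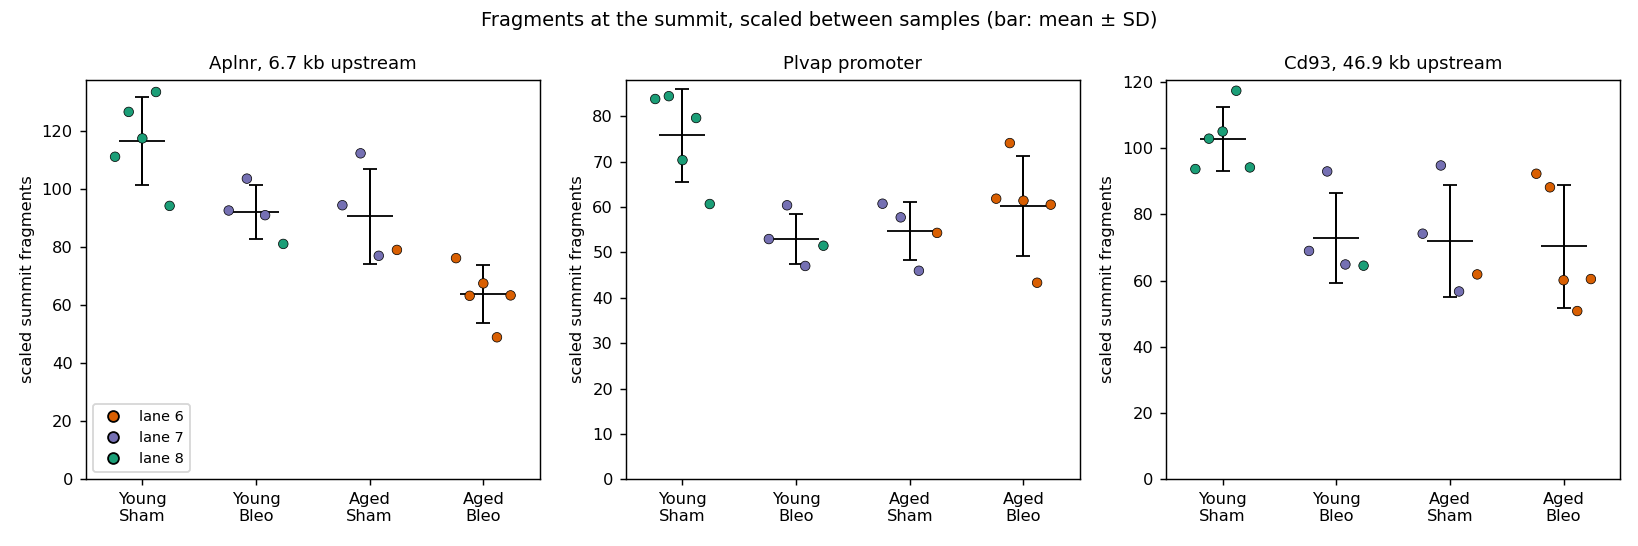
Scaled summit fragments (vertical axis, from 0) of Aplnr region 3, the Plvap promoter and Cd93 region 6 in the 4 groups. Points are single mice coloured by sequencing lane, and bars give the mean ± SD. At Aplnr region 3 the 5 Aged Bleo samples, 49.0 to 76.2, lie below all others.

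The other 3 regions with a peak in every sample did not pass in any comparison on either scale. Cd93 region 5 (chr2:148478210-148478731), 34936 bp upstream, was the strongest member region, at the 88.2nd percentile of its list at the median. It ranked at 83.6 to 96.8 in Young Bleo and 71.7 to 80.2 in Young Sham, without overlap, and the difference of 15.5 points had a limma adjusted p of 0.249. The Aged Bleo samples spread from 44.4 to 94.4. The Cd93 promoter (region 1, chr2:148443226-148443904) had a mean rank of 36.7 in Young Sham, 38.4 in Young Bleo, 38.4 in Aged Sham and 39.2 in Aged Bleo, so its group means lay closer together than its samples. Hilpda encodes a small protein of lipid droplets that is induced by hypoxia and restrains lipolysis. The Hilpda promoter (region 4, chr6:29272307-29272902) had 92.4 to 138 scaled summit fragments over the 18 samples. Its mean rank was 44.1 ± 3.45 in Young Sham (n = 5), 47.3 ± 2.72 in Young Bleo (n = 4), 47.1 ± 11.96 in Aged Sham (n = 4) and 44.1 ± 14.4 in Aged Bleo (n = 5). By rank the aged samples were spread more widely around nearly the same means, while in fragments Aged Sham was the narrowest group, at 105 to 111.

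Whether the bleomycin effect differed between aged and young mice was tested as an interaction at the 8 regions. The smallest limma adjusted p was 0.576, at Gpihbp1 region 2, where the bleomycin difference of aged mice minus that of young mice was −15.02 points (SE 7.96). At the Cxcl12 promoter it was −8.13 points (SE 7.06, limma adjusted p = 0.748). On the log2 scale of the scaled summit fragments the smallest was 0.168, at the Plvap promoter, where the bleomycin difference was 0.64 higher in aged than in young mice (1.56-fold, unadjusted p = 0.00552 from limma). At the Hilpda promoter it was 0.35 (limma adjusted p = 0.255). No difference between the ages in the response to bleomycin passed the threshold at the 8 regions on either scale.

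**Figure D4:**
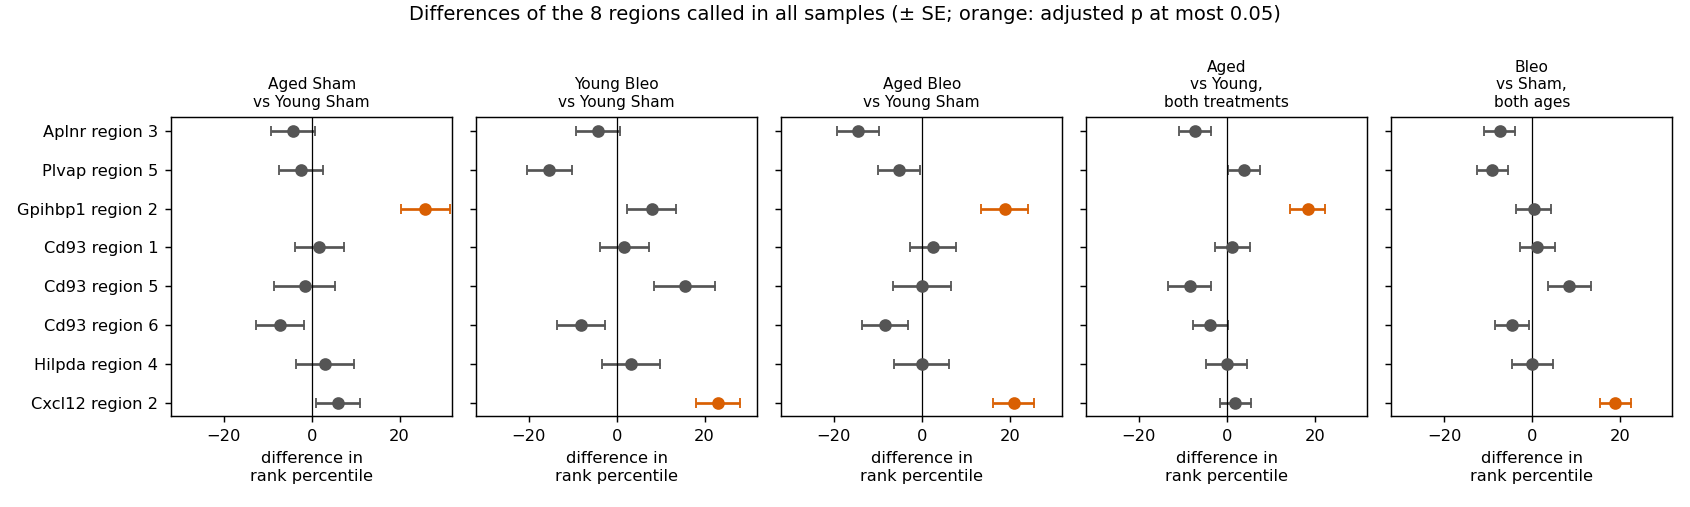
Differences in rank percentile (horizontal axis, percentile points ± SE from limma) of the 8 member regions with a peak in all samples, one panel per comparison. Orange points have an adjusted p of at most 0.05. These are the Cxcl12 promoter in Young Bleo (23.05), Aged Bleo (20.9) and Bleo (18.98), and Gpihbp1 region 2 in Aged Sham (25.9), Aged Bleo (18.8) and Aged (18.4).

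The number of open regions was then compared per locus, with a two-sided exact permutation test of the difference in means and BH adjustment over 17958 genes. No member passed after adjustment, and the counts are of loci with an unadjusted p of at most 0.05. In Aged Sham against Young Sham, 1 of the 7 genes had fewer open regions and 0 more, against 10% and 0.273% of all genes. In Young Bleo against Young Sham the counts were 1 and 0, against 2.22% and 5.37%, and in Aged Bleo against Young Sham 1 and 0, against 4.82% and 0.206%. In Aged against Young they were 2 and 0, against 12.2% and 0.156%, and in Bleo against Sham 0 and 0, against 1.45% and 2.50%.

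Aplnr had fewer open regions in the aged samples. It had 7, 7, 6, 7 and 6 of its 7 regions open in Young Sham 1 to 5 and 6, 7, 6 and 7 in Young Bleo 1 to 4. It had 6, 6, 5 and 5 in Aged Sham 1 to 4 and 6, 6, 3, 2 and 4 in Aged Bleo 1 to 5. No aged sample had all 7, and the young samples never had fewer than 6. Aged samples differed from young samples by −1.78 regions (exact permutation p = 0.00288, adjusted p = 0.153), and Aged Bleo from Young Sham by −2.40 (exact permutation p = 0.0476, adjusted p = 0.947). In lists of equal length these differences were −2.44 regions (exact permutation p = 0.000288) and −3.20 regions (exact permutation p = 0.00794). The Aplnr region that stayed open in all samples was region 3, whose fragments were lower in Aged Bleo than in the other groups. In lists of equal length Aplnr also had fewer open regions in Aged Sham than in Young Sham, by −1.40 (exact permutation p = 0.0317). Leaving out Young Sham 1, 2 or 4 ended the call of Aged Bleo in the full lists (exact permutation p up to 0.0794).

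Cxcl12 had 5, 4, 4, 5 and 4 of its 5 regions open in Young Sham 1 to 5, 4 in each Young Bleo sample and 3 in each Aged Sham sample. Aged Bleo 1 to 5 had 3, 5, 3, 2 and 4. Aged Sham and Young Sham did not overlap, with a difference of −1.40 regions (exact permutation p = 0.00794, adjusted p = 0.383). Aged samples differed from young samples by −1 region (exact permutation p = 0.0160, adjusted p = 0.265). In lists of equal length the p of these differences was 0.127 and 0.0753 by the same exact test. There Cxcl12 had fewer open regions in Young Bleo (−0.80, exact permutation p = 0.0476) and Aged Bleo (−1, exact permutation p = 0.0397) than in Young Sham instead. In those lists 1.89%, 3.38% and 2.32% of all genes had fewer open regions than in Young Sham (in the order Aged Sham, Young Bleo, Aged Bleo), and 1.45% in Aged against Young. At the promoter itself, scaled summit fragments overlapped between Aged Sham (25.6 to 43.3) and Young Sham (32.5 to 38.1), with Aged Sham 1 and 3 below every Young Sham sample. Hilpda had all 4 regions open in each Young Sham sample and 3, 3, 4 and 3 in Young Bleo 1 to 4 (exact permutation p = 0.0476, adjusted p = 0.627). This difference no longer passed in 8 of 9 tests that left out a sample (exact permutation p up to 0.143; it held without Young Bleo 3) or in lists of equal length (exact permutation p = 0.206). It had 2, 4, 2 and 4 in Aged Sham 1 to 4 and 4, 4, 4, 2 and 4 in Aged Bleo 1 to 5.

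**Figure D5:**
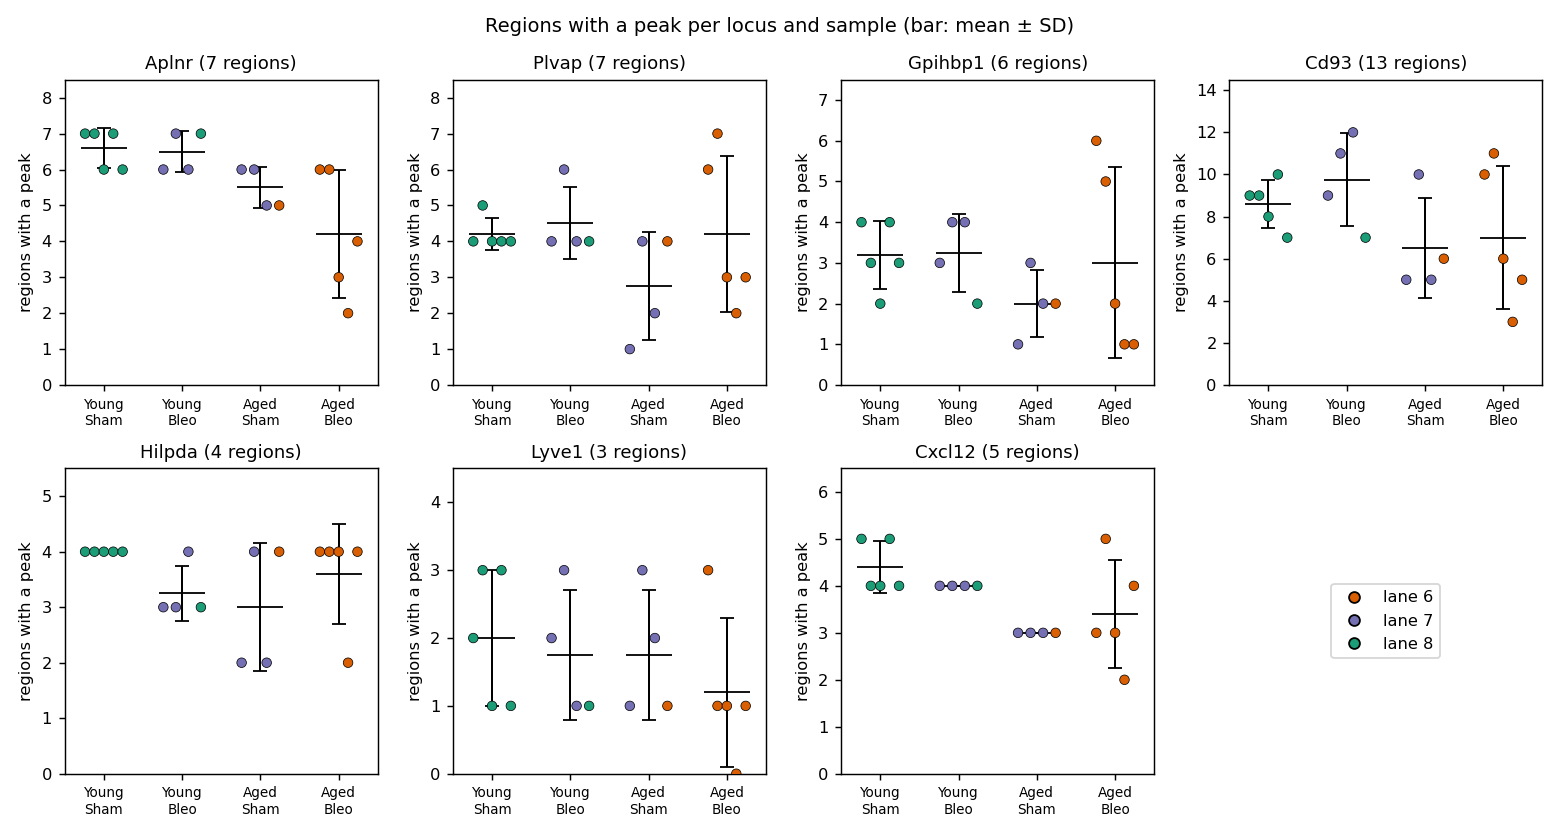
Number of regions with a peak (vertical axis) per locus and sample in the 4 groups, one panel per gene with its number of regions. Points are single mice coloured by sequencing lane, and bars give the mean ± SD. Aplnr is at 6 or 7 in young samples and at 2 to 6 in Aged Bleo, and Cxcl12 is at 3 in every Aged Sham sample.

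The remaining loci did not pass in any comparison. Plvap had 4 to 5 regions open in Young Sham, 4 to 6 in Young Bleo, 1 to 4 in Aged Sham and 2 to 7 in Aged Bleo. Cd93 had 7 to 10, 7 to 12, 5 to 10 and 3 to 11 in the same order, and Gpihbp1 2 to 4, 2 to 4, 1 to 3 and 1 to 6. The widest ranges were those of Aged Bleo, where samples 1 and 2 had the most open regions at each of these loci. Lyve1 encodes a hyaluronan receptor that is best known from lymphatic endothelium. It had 1 to 3 regions open in the first 3 groups and 3, 1, 1, 0 and 1 in Aged Bleo 1 to 5. Its promoter (region 2, chr7:110862870-110863264) was found in 2 samples each of Young Sham, Young Bleo and Aged Sham and in 1 of Aged Bleo. Its most frequent region was region 1 (chr7:110860010-110860509), in an intron 2693 bp downstream of the TSS, found in 16 samples at the 43.7th percentile of the list at the median. Lyve1 region 3 lay in an intron of Mrvi1 and was counted because the Lyve1 TSS is the nearest.

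The remaining regions ranged from rarely to almost always open. Aplnr region 2 and Cxcl12 regions 1 and 3 had a peak in 17 samples each, Hilpda region 2 in 16, Aplnr region 6 and Cd93 region 10 in 15 and Hilpda region 1 in 14. Plvap regions 1, 3 and 6, Gpihbp1 regions 1, 4 and 5, Cd93 regions 4, 8 and 9 and Cxcl12 region 5 had a peak in 2 to 4 samples each, and 6 of these 10 regions had none in Young Sham. Away from the genes, Cd93 had the farthest regions: regions 7 to 13 lay 62426 to 106300 bp upstream, and region 7 (chr2:148505629-148506292) was found in 17 of 18 samples. Cxcl12 region 5 (chr6:117267908-117268204) lay 99521 bp downstream.

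Some regions of other EC marker genes also differed in presence at an unadjusted Fisher's exact p of at most 0.05, and none did after adjustment. Of 61 regions of 5 other gCap marker genes, 8, 4 and 7 were lower than in Young Sham in the other 3 groups, in the order Aged Sham, Young Bleo, Aged Bleo, and 6 in Aged against Young. In Young Bleo 1 was higher, and none was in the other 3 comparisons. Of 57 regions of 8 aerocyte marker genes, 5, 7, 5 and 4 were lower and none was higher. Of all regions, 4.90%, 1.96%, 3.01% and 4.87% were lower and 0.264%, 3.98%, 0.201% and 0.127% higher in the same order. These counts and shares include regions that met the rule of a peak in at least 2 samples only through the higher group. A Kit region (chr5:75459435-75459846) had a peak in all Young Sham samples and in no other sample. Regions of Tek (chr4:94720381-94720873), Ptprb (chr10:116330425-116330786) and the aerocyte gene Ednrb (chr14:103785142-103785461) had none in the aged samples. Among regions with a peak in all samples, the median difference in rank percentile between Aged Sham and Young Sham was 0.07 points for the 8 member regions, −7.31 for 11 regions of the other gCap genes, 1.94 for 18 aerocyte regions and 0.43 for all regions. For Young Bleo against Young Sham the medians were 2.47, −0.84, 1.20 and −0.03, and for Aged Bleo against Young Sham 0.06, −5.11, 2.71 and 0.34. The member median lay near that of all regions in the aged comparisons, with the Cxcl12 promoter and Gpihbp1 region 2 above it and Aplnr region 3 below. Among the other gCap genes, a region of Kit (chr5:75472338-75473050), a receptor tyrosine kinase, was lower by rank in Young Bleo (−16.0 points, limma adjusted p = 0.0389) and in Aged Bleo (−16.0 points, adjusted p = 0.0151). Among the aerocyte genes, a region of Ednrb (chr14:103815480-103816085), an endothelin receptor, was higher in both (25.2 and 26.6 points).

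Over the 18 samples, the share of open regions could be compared with that of other genes for Cd93 alone, the member with at least 8 regions. The share of all regions open in each sample was taken off first, so that the length of the list counted less. Of 1348 genes with at least 8 regions, the highest Pearson correlations with Cd93 were at Tshz2 (0.829), Gm27162 (0.822) and Sgms1 (0.819). All points share their library and lane, the genes were picked as the highest of many, and no p is given.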

How the data were processed

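Nuclei of sorted lung ECs were profiled by Omni-ATAC-seq. Per the methods and labels, the authors mapped paired-end reads to mm10 with BWA, removed duplicates with Picard and called peaks with MACS2 in each sample at an FDR of 1%. Fold enrichment was deposited as the ratio of the pileup at a peak's summit to the background that MACS2 estimated around it. The −log10 p and −log10 q that the authors deposited are from MACS2's Poisson test within the library and depend on its depth. The deposited score, a rescaled −log10 q, was not used. None is scaled between libraries, and a control library or Tn5 shift is not given in the sources used here. Differential accessibility from read counts could not be computed from peak lists.

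After 19 mitochondrial peaks had been left out, overlapping peaks (1 bp or more) were merged, and a region needed peaks from 2 or more mice. TSSs were those of 45756 RefSeq transcripts. Each sample is 1 mouse. Presence was tested with Fisher's exact test, open regions per gene with exact permutation tests of the absolute difference in means (Python 3.11.15, scipy 1.17.1), and rank percentiles with limma 3.58.1 in R 4.3.3, as a trended fit of the 4 group means to all 18 samples, with Benjamini-Hochberg adjustment over all features. Whole fragments at the summit were solved from the fold enrichment (with MACS2's pseudocount of 1) and −log10 p. At least 99.98% of the peaks of each list came out whole within a tolerance of 0.005 in −log10 p, and the fragments were scaled by median ratios over the regions found in all samples. The tests were checked on simulated data. Member regions named are the promoter, the region with the highest median percentile within the lists, and each region with an unadjusted presence p of at most 0.05 or an adjusted strength p of at most 0.05. Other regions named were chosen after their values were seen. Members, marker lists and tests were chosen with earlier results of these data known. Sequences are from the RefSeq GRCm38.p6 assembly. Alternatives were stricter peaks, lists of equal length, other rank scales, a replicate block and leaving out each sample.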

Additional observations from a re-analysis of the deposited data

Results flagged for a closer look

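In 89 groups of values of 4 or 5 samples, 7 samples stood apart from the rest of their group by Dixon's test at the 95% level, which chance does in about 1 group of 20. No difference between groups in the effect of bleomycin met its threshold. Young Sham 2 had 5 open Plvap regions and the other Young Sham samples 4 each. Young Bleo 2 had 6 and the other Young Bleo samples 4 each. Young Bleo 3 had 4 open Hilpda regions and the others of its group 3 each. Aged Bleo 4, with the shortest list, had 2 open Hilpda regions and the other Aged Bleo samples 4 each. These counts are small whole numbers, in which a step of 1 region can meet the criterion.

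At Aplnr region 3, Young Sham 4 ranked at 72.6 and the other Young Sham samples at 57.9 to 60.3. At Gpihbp1 region 2, Aged Bleo 2, with the longest list, ranked at 27.9 and the other Aged Bleo samples at 39.97 to 43.8. At Cd93 region 6, Young Bleo 2 had 93.0 scaled summit fragments and the other Young Bleo samples 64.5 to 69.0.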

How the results depend on the processing

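No difference that passed with the full lists reversed its sign under an alternative run, but 13 of 17 in presence or open regions per locus no longer passed with lists of equal length. Cd93 region 10 in Bleo against Sham and Hilpda region 3 in Aged against Young passed with lists of equal length only. Both had the other sign in the full lists. The number of member regions that differed in presence was 3, 1, 2, 6 and 0 in the order Aged Sham, Young Bleo, Aged Bleo (each against Young Sham), Aged against Young, Bleo against Sham. With lists of equal length it was 1 (lower), 4 (3 lower, 1 higher), 5 (4 lower, 1 higher), 4 (3 lower, 1 higher) and 4 (lower), where with the full lists all were lower but the 1 of Young Bleo. With peaks covering at least 50% of a region it was 6 in Aged Sham and 4 in Aged Bleo. With a fold enrichment of at least 5 it was 2 in Young Bleo, and with a −log10 q of at least 5 it was 1 in Bleo against Sham. Leaving out each sample gave 0 to 1, 0 to 1, 2 to 5 (5 without Aged Bleo 2), 6 to 8 and 0 to 3 (3 without Young Bleo 4, or Aged Bleo 3, 4 or 5).

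The number that differed in strength was 1, 1, 2, 1 and 1. Ranked among all peaks of the list it was 0, 0 and 1 in the first 3, unchanged in Aged against Young and 0 in Bleo against Sham. Gpihbp1 region 2 did not pass on that scale, and the call in Aged against Young was at Aplnr region 3, which was lower in the aged samples. Ranked by −log10 p the number was 2 in Young Bleo, 4 in Aged Bleo, 2 in Aged and 2 in Bleo. With log2 scaled summit fragments, chosen after seeing the data, it was 3, 3, 4, 2 and 2. The replicate number did not pair the mice (25 same-numbered pairs, r from −0.193 to 0.335, median 0.0317). A replicate block gave 0 in Aged Sham and 1 in Aged Bleo, where Gpihbp1 region 2 had limma adjusted p of 0.0700 and 0.0533. Leaving out each sample gave 0 to 1 (0 without Young Sham 1, 2, 3 or 5 or Aged Sham 2 or 3), 0 to 1 (0 without Young Bleo 1), 1 to 3, 0 to 1 (0 without Young Bleo 3) and 1 to 2 (2 without Aged Sham 4 or Aged Bleo 4).

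The number of loci with fewer open regions was 1, 1, 1, 2 and 0. It was 2 in Aged Sham with a −log10 q of at least 5, and with lists of equal length it was 1 in Aged Sham (Aplnr in place of Cxcl12), 1 in Young Bleo (Cxcl12 in place of Hilpda), 2 in Aged Bleo (Aplnr and Cxcl12) and 1 in Aged against Young (Aplnr). Leaving out each sample gave 1 to 2 (2 without Aged Sham 2), 0 to 1, 0 to 2 (0 without Young Sham 1, 2 or 4, 2 without Aged Bleo 2), 2 to 3 and 0 to 0. The cause of these changes was not tested. Without read counts, a region near the threshold of a short list cannot be told from a closed one.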
